A study of Mus musculus with 4 samples.

Results

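Immunoglobulin constant genes encode the part of an antibody chain that does not bind antigen, and the J chain joins antibodies into polymers. The 9 genes described here are Ighm, Ighd, Igha, Ighg1, Ighg2b, Ighg3, Igkc, Iglc2 and Jchain. They were taken by symbol from the 31053 genes of the matrices. The data are UMI counts, in which each captured RNA molecule counts once, from CD45+ immune cells of the spinal cord of C57BL/6J mice. The mice were 3 months old and of both sexes. A sham mouse had a laminectomy only, and an injured mouse also had a contusion at the tenth thoracic segment, the model of spinal cord injury (SCI). There were 4 libraries, 1 per condition. Standard sham was dissociated without a transcription inhibitor. ActD sham, 3 dpi and 14 dpi (days post injury) were dissociated with actinomycin D (ActD), which blocks transcription and so limits RNA made during the preparation. Mice were perfused, a cord segment around the lesion site was dissociated and CD45+ cells were sorted. Mice were divided among control, 3 dpi and 14 dpi, but how many went into each of the 4 libraries is not given in the sources used here, and animals of a condition cannot be told apart in its library.

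With 1 library per condition, no difference could be set against a spread between mice, and no test between conditions was made. Intervals are exact 95% intervals and cover counting error only. The matrices held 6827 barcodes in standard sham, 2439 in ActD sham, 10763 at 3 dpi and 11631 at 14 dpi, with 27447471 to 129935880 UMIs per library. Between 3 and 36 barcodes were shared by each pair of libraries. The sort marker Ptprc (CD45) had a UMI in 84.1% to 94.8% of the cells kept. Standard sham and 3 dpi carry a different software version in their matrix headers from ActD sham and 14 dpi, so within the sham pair an effect of dissociation cannot be told apart from one of the version. The same holds for the time after injury between 3 dpi and the other ActD libraries.

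A B cell first rearranges its heavy chain gene and pairs the new µ chain, made from Ighm, with a surrogate light chain. It then rearranges a κ light chain gene, joined to Igkc, or a λ gene, joined to a constant gene such as Iglc2. A mature naive B cell also splices the same primary transcript to Ighd, so that it carries IgM and IgD. Class switching replaces Ighm by an Ighg gene, Igha or Ighe downstream on the chromosome. Plasmablasts and plasma cells, which secrete antibody, devote much of their RNA to 1 heavy and 1 light chain, and J chain links IgM into pentamers and IgA into dimers.

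The heavy chain members lie on the minus strand of chromosome 12 in mouse build GRCm38, in the order of transcription Ighm, Ighd, Ighg3, Ighg1, Ighg2b and Igha, from chr12:113418558-113422730 for Ighm to chr12:113254830-113260236 for Igha. Igkc lies at chr6:70726435-70726966 on the plus strand, Iglc2 at chr16:19198396-19200351 and Jchain at chr5:88519809-88527891, both on the minus strand. The sequences below are the last 60 coding bases, stop codon included, of the transcripts that end in the secreted form of the heavy chain. They are shown because they set apart the isotypes that carry J chain. In Ighm and Igha the capitals mark a cysteine codon, the penultimate one before the stop, the residue of the tail through which IgM and IgA join J chain.
Ighm chr12:113420867-113420926: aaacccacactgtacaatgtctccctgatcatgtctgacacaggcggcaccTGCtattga
Igha chr12:113258768-113258827: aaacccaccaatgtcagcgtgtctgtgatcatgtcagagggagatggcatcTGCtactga
Ighg1 chr12:113328976-113329035: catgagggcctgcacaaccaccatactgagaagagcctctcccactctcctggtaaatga
Ighg2b chr12:113306389-113306448: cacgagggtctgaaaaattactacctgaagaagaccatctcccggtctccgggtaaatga
Ighg3 chr12:113359665-113359724: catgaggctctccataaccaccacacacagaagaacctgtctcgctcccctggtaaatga
The 3 Ighg sequences hold no cysteine codon in that place. Over their aligned coding sequence, Ighg1 and Ighg2b were identical at 73.7% of bases, Ighg1 and Ighg3 at 73.5%, and Ighm and Igha at 43.5%.

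The λ genes Iglc2 and Iglc3 are much closer to each other, at 96.2% of aligned coding bases, which limits what a count of Iglc2 means. Iglc1 and Iglc2 were identical at 72.3%. The last 60 coding bases of Iglc2, Iglc3 and Iglc1 follow, all on the minus strand of chromosome 16, and the capitals in Iglc1 mark the 13 bases that differ from Iglc2.
Iglc2 chr16:19198536-19198595: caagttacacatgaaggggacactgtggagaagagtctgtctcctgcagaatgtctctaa
Iglc3 chr16:19065365-19065424: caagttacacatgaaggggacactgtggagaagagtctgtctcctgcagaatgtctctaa
Iglc1 chr16:19061752-19061811: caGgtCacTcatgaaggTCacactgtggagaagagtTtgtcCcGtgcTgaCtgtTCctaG
Iglc2 and Iglc3 were identical in this stretch and at 306 of 318 aligned coding bases, so the split of reads between them is uncertain. The libraries read the 3′ end of a transcript and the counts are given per gene, so the membrane and secreted forms of a heavy chain are not separated.

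Cells were clustered without any immunoglobulin gene, so that the members did not define the classes. B-lineage cells numbered 732 of 5035 cells in standard sham (14.5%, interval 13.6% to 15.5%), 71 of 2135 in ActD sham (3.33%, 2.61% to 4.18%), 133 of 8214 at 3 dpi (1.62%, 1.36% to 1.92%) and 484 of 9078 at 14 dpi (5.33%, 4.88% to 5.81%). Cd79a and P2ry12 are among the markers that named the classes, so their levels describe the label and do not test it. Cd79a, the signalling partner of membrane immunoglobulin, had a UMI in 93.2% to 100% of B-lineage cells and in 0.825% to 4.53% of microglia-like cells. The microglial gene P2ry12 was at 9.16 to 22.6 CPM (UMIs of the gene per 1000000 UMIs of the group) in B-lineage cells and at 199 to 2205 CPM in microglia-like cells. In standard sham, 67 further cells of a cluster led by Fcmr, H2-DMb2 and Cd79a stayed without a name and are not counted. Their highest marker score was that of microglia, while 3 of their 10 leading genes were B-cell markers and 0 microglial ones. Cd79a had a UMI in 92.5% of these 67 cells, and Ighm was at 956 CPM, Ighd at 220 and Igkc at 2607. Class names were rebuilt here and may differ from those of the study.

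B-lineage cells fell into 3 stages by their clusters. Pro-B and pre-B-like cells, with Dntt, the enzyme that adds bases at rearranging joints, numbered 119 in standard sham, 8 in ActD sham, 0 at 3 dpi and 202 at 14 dpi. Cells led by Vpreb3, a gene of pre-B and immature B cells, numbered 453, 27, 1 and 106 in the same order. Cells led by Ms4a1 (CD20), a marker of later B cells, numbered 160, 36, 132 and 176. The stage makeup therefore differed between libraries, and 3 dpi held Ms4a1-led cells almost alone. Vpreb3-led cells are those of B-cell clusters without Ms4a1 or Fcmr among the 10 leading genes. In standard sham they took in 85 cells of a cluster led by Myl4 and Vpreb3. At 14 dpi, 84 cells of a cluster led by Myl4, Hist1h1a and Vpreb3 were named pro-B and pre-B-like. Mki67, a marker of cycling cells, was at 767 CPM in Vpreb3-led cells of standard sham, 0 in ActD sham and 58.5 at 14 dpi. Both earlier stages are thus not like for like between libraries. The low-affinity IgE receptor gene Fcer2a of mature B cells was at 123 to 197 CPM in Ms4a1-led cells of the 4 libraries and at 0 UMIs in the other stages.

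Among the heavy chain genes, Ighm was abundant at every stage. In pro-B and pre-B-like cells it was at 2156 CPM in standard sham, 1576 in ActD sham and 2039 at 14 dpi. In Vpreb3-led cells it was at 5471, 6777 and 6235 CPM in the same libraries. In Ms4a1-led cells it was at 4129 CPM in standard sham, 5703 in ActD sham, 3746 at 3 dpi and 5467 at 14 dpi. By CPM, Ighm was thus lowest in pro-B and pre-B-like cells in each of the 3 libraries that held all stages. Counted per cell, it was highest there in each of them, since many of these cells were deeper. In standard sham, 119 pro-B and pre-B-like cells held 4104 Ighm UMIs, 453 Vpreb3-led cells 12830 and 160 Ms4a1-led cells 2949. The largest clusters of these stages had median depths of 16384, 3580 and 3892.5 UMIs. At least 1 Ighm UMI was found in 97.7% to 99.8% of all B-lineage cells, at median depths of 2475 to 5978 UMIs. The same share in microglia-like cells was 38.4% to 82.8%, at median depths of 7807 to 17204 UMIs, and is described with the other counts of these cells further on.

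Ighd set Ms4a1-led cells apart from both earlier stages. In pro-B and pre-B-like cells it was at 16.8 CPM in standard sham, 21.2 in ActD sham and 25.7 at 14 dpi. In Vpreb3-led cells it was at 37.9, 60.6 and 48.2 CPM. In Ms4a1-led cells it was at 494 CPM in standard sham, 515 in ActD sham, 679 at 3 dpi and 379 at 14 dpi, well above both earlier stages in every library that held them. The ratio of Ighd to Ighm UMIs was 0.0069 to 0.0089 in Vpreb3-led cells. In Ms4a1-led cells it was 0.120 in standard sham, 0.0903 in ActD sham, 0.181 at 3 dpi and 0.0693 at 14 dpi.

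Ms4a1-led cells were held by different clusters in different libraries, and Ighd followed the cluster. At 14 dpi, 111 Ms4a1-led cells of 1 cluster were at 127 CPM of Ighd and 6708 CPM of Ighm, and 65 cells of another were at 773 CPM of Ighd and 3523 CPM of Ighm. In ActD sham the same clusters held 21 cells at 258 CPM of Ighd and 15 cells at 843 CPM. The Ms4a1-led cells of 3 dpi lay in another cluster again, at 679 CPM, and 154 of the 160 in standard sham in 1 more, at 502 CPM. A difference in Ighd between libraries within the Ms4a1-led group is therefore also a difference in cluster.

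The light chain genes were higher at each later stage. Igkc, the only κ constant gene, was at 718 CPM in pro-B and pre-B-like cells of standard sham, 5602 in Vpreb3-led cells and 9844 in Ms4a1-led cells. In ActD sham the 3 stages were at 797, 6339 and 13149 CPM. At 14 dpi they were at 689, 3969 and 13880 CPM. The Ms4a1-led cells of 3 dpi were at 6464 CPM, lower than those of every other library. Iglc2, a λ constant gene, was at 15.2, 113 and 0.885 CPM in pro-B and pre-B-like cells of standard sham, ActD sham and 14 dpi. It was at 779, 2100 and 1276 CPM in Vpreb3-led cells, and at 1705, 2453, 898 and 1880 CPM in Ms4a1-led cells of standard sham, ActD sham, 3 dpi and 14 dpi. Vpreb3-led cells, too, were held by different clusters. In standard sham, 366 of them in 1 cluster were at 7669 CPM of Igkc and 1339 of Iglc2, and 85 in another at 2617 and 8.19 CPM, while those of ActD sham and 105 of the 106 at 14 dpi lay in a different cluster. Both light chain genes were lowest in pro-B and pre-B-like cells, where the surrogate light chain is in use.

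**Figure D1:**
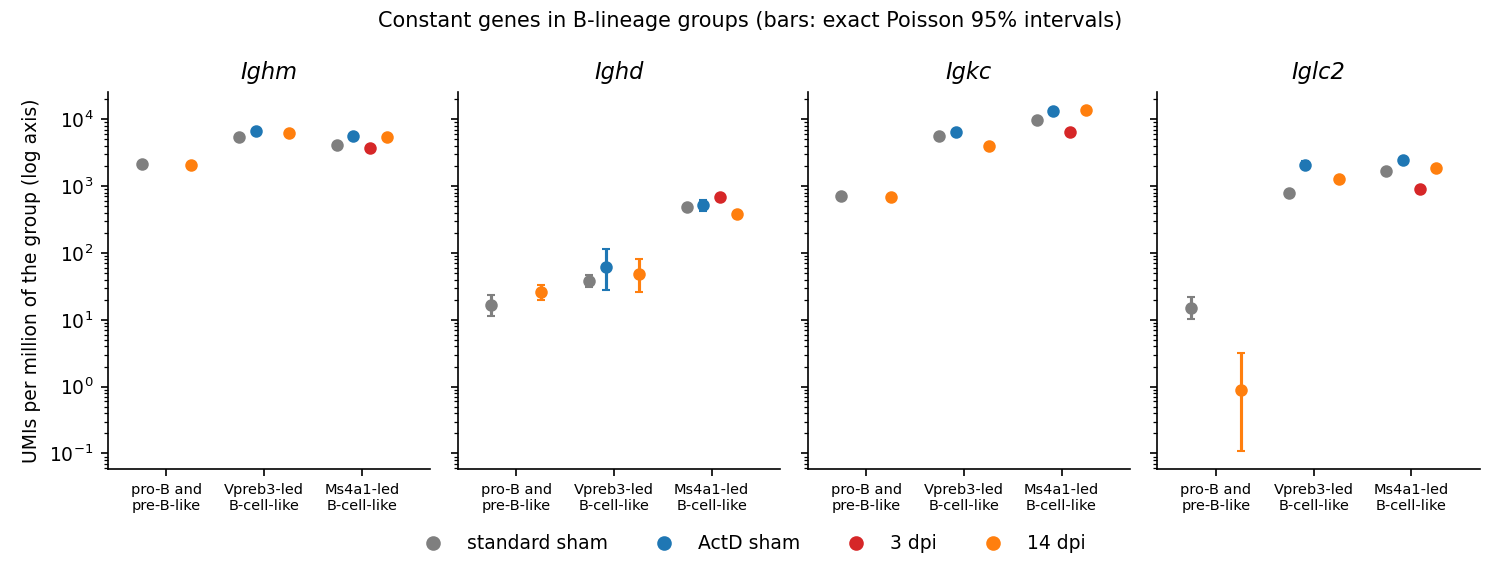
Levels of Ighm, Ighd, Igkc and Iglc2 in CPM on a log axis, by B-lineage stage and library, for groups of at least 20 cells, with exact Poisson 95% intervals as bars. Ighd in Ms4a1-led cells (379 to 679 CPM) stands far above the earlier stages, and Igkc climbs from 718 to 9844 CPM over the stages of standard sham.

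Together, the 9 members took 0.292%, 0.255% and 0.278% of all UMIs of pro-B and pre-B-like cells in standard sham, ActD sham and 14 dpi. They took 1.19%, 1.54% and 1.15% of those of Vpreb3-led cells, and 1.62%, 2.20%, 1.18% and 2.17% of those of Ms4a1-led cells in the 4 libraries. Over all B-lineage cells the shares were 0.907% in standard sham, 1.26% in ActD sham, 1.18% at 3 dpi and 0.727% at 14 dpi. The order of the libraries therefore differed between all B-lineage cells, where 14 dpi was lowest, and Ms4a1-led cells, where 3 dpi was lowest.

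Switched heavy chain genes were almost absent from B-lineage cells. Ighg1 had 2 UMIs in standard sham, 0 in ActD sham, 0 at 3 dpi and 2 at 14 dpi. Ighg3 had 1, 10, 0 and 3 UMIs, and all 10 of ActD sham came from 1 cell. Ighg2b was at 5.84 CPM in standard sham (29 UMIs), 32.0 in ActD sham (22 UMIs), 2.82 at 3 dpi (1 UMI) and 13.9 at 14 dpi (44 UMIs). At 14 dpi, 27 of the 44 Ighg2b UMIs came from 1 cluster of 64 pro-B and pre-B-like cells, which held 1773 UMIs of Ighm. Ighg2c had 1 UMI over the 4 libraries and Ighe 0.

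Igha was at 0.806 CPM in B-lineage cells of standard sham (4 UMIs), 65.5 in ActD sham (45 UMIs), 25.4 at 3 dpi (9 UMIs) and 10.7 at 14 dpi (34 UMIs). In ActD sham, 33 of the 45 UMIs came from 1 cell. At 3 dpi, each of the 9 UMIs lay in a cell of its own. The share of B-lineage cells with an Igha UMI was 14.1% in ActD sham, 6.77% at 3 dpi and 4.13% at 14 dpi, and that of microglia-like cells, which are deeper, was 12.95%, 11.3% and 4.69%. After thinning every cell to 1000 UMIs, the shares were 5.63%, 4.51% and 1.45% in B-lineage cells and 1.40%, 0.640% and 0.661% in microglia-like cells. All of these shares lie far under the level of 1 UMI per thinned cell. Jchain had 8, 3, 0 and 14 UMIs in B-lineage cells of standard sham, ActD sham, 3 dpi and 14 dpi, which puts the limit at 3 dpi at 8.46 CPM.

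Nearly every B-lineage cell with enough UMIs for a call was of the IgM and IgD class. Among cells with at least 5 heavy chain UMIs, over 60% of those UMIs were Ighm or Ighd in 715 of 715 cells of standard sham, 70 of 71 of ActD sham, 112 of 112 of 3 dpi and 454 of 458 of 14 dpi. A count of 0 switched cells allows a share of up to 0.42% in standard sham and 2.68% at 3 dpi, over all stages together. The 715 cells of standard sham included 111 pro-B and pre-B-like and 450 Vpreb3-led cells. Its Ms4a1-led cells alone gave 0 of 154, which allows up to 1.95%. At 3 dpi, 111 of the 112 cells were Ms4a1-led. The exception in ActD sham was an Ms4a1-led cell with 33 Igha UMIs, 0 of Ighm, 205 of Igkc and 0 of Jchain. At 14 dpi, 1 Ms4a1-led cell with 5 Ighg2b and 2 Ighm UMIs was called IgG, 1 pro-B and pre-B-like cell with 4 Igha and 2 Ighm UMIs was called IgA, and 2 cells were mixed. The switched cells other than that of ActD sham rest on 4 or 5 UMIs of the switched gene.

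Light chain calls were less clean. A B cell normally carries 1 light chain, and cells were called κ with at least 90% of their light chain UMIs from Igkc and λ with at most 50%. Mixed calls made up 28.0% of 664 cells in standard sham, 49.3% of 67 in ActD sham, 73.4% of 124 at 3 dpi and 34.7% of 375 at 14 dpi. In Ms4a1-led cells the mixed share was 59.2%, 63.9%, 73.4% and 60.8% in the same order. λ calls made up 16.3%, 23.9%, 8.87% and 17.1% of B-lineage cells, and 20.1%, 37.0% and 43.6% of Vpreb3-led cells in standard sham, ActD sham and 14 dpi. Over the sums of all B-lineage cells, Igkc made up 75.7%, 66.7%, 74.6% and 74.4% of the light chain UMIs. The part of free light chain RNA in the mixed calls was not tested.

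Between libraries, a gene was counted as higher or lower where its CPM ratio was at least 2 or at most 0.5. Only genes that reached 20 UMIs over both libraries were measured. In B-lineage cells, 6 of the 9 members were measured in each pair. At 3 dpi against ActD sham, 1 was higher and 2 were lower, where 8.8% of all genes measured were higher and 22% lower, and the median of all genes was shifted by -0.29 on the log2 scale. At 14 dpi against ActD sham, 0 were higher and 4 lower, against 8.4% and 4.69% of all genes. At 14 dpi against 3 dpi, 1 was higher and 2 were lower, against 25.9% and 12.2% of all genes, with a median log2 shift of 0.20. The higher one was Ighg2b, with 44 UMIs against 1 and a ratio of 4.93 (0.839 to 199). The lower ones were Ighd and Igha, the latter at a ratio of 0.423 (0.199 to 1.003). The intervals of Ighg2b and Igha both include equal levels. In standard sham against ActD sham, 0 were higher and 4 lower, against 10.6% and 6.35% of all genes.

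The members moved apart from one another. For Ighd, the ratio of 3 dpi to ActD sham was 3.15 (2.56 to 3.90) and that of 14 dpi to 3 dpi was 0.143 (0.121 to 0.171). Ighm stayed within the fold, with ratios of 0.886 (0.830 to 0.946) at 3 dpi and 0.730 at 14 dpi against ActD sham. For Igkc, the ratio of 3 dpi to ActD sham was 0.973 (0.925 to 1.02), and that of 14 dpi to ActD sham was 0.540 (0.521 to 0.559). Iglc2 was at 0.629 times its ActD sham level at 3 dpi and at 0.342 times at 14 dpi. For Igha, the ratio of 3 dpi to ActD sham was 0.388 and became 1.29 without the cell with most Igha UMIs in each library. The Ighg2b ratio of 14 dpi to ActD sham was 0.434 and became 0.574 in the same way. At a cluster resolution of 1.2 the Ighd ratio of 3 dpi to ActD sham turned to 0.145, because 163 cells of 3 dpi, of which 3.68% had a Cd79a UMI, then took a B-lineage name.

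Within Ms4a1-led cells, 5 members were measured and several of these ratios took another course. Against ActD sham, 0 members were higher and 3 lower at 3 dpi, where 8.76% of all genes were higher and 12.7% lower, with a median log2 shift of -0.23. At 14 dpi against ActD sham, 0 were higher and 1 was lower, against 6.61% and 3.86% of all genes. Igkc was at 0.492 times its ActD sham level at 3 dpi (0.466 to 0.519) and at 1.06 times at 14 dpi (1.01 to 1.10). Between 3 and 14 dpi, 2 members were higher and 0 lower, against 13.2% and 6.49% of all genes and a median log2 shift of 0.22. The ratios were 2.15 (2.05 to 2.25) for Igkc and 2.09 (1.85 to 2.38) for Iglc2. The Ms4a1-led cells of 3 dpi lay in another cluster than those of ActD sham and 14 dpi. Every ratio with 3 dpi in this group is therefore also one between clusters. The ratio of Ighd between 3 dpi and ActD sham was 1.32 (1.06 to 1.64), against 3.15 over all B-lineage cells. In standard sham against ActD sham, 0 of the 5 were higher and 1 was lower, which was Igha, against 9.55% and 11.1% of all genes and a median log2 shift of -0.20. The member lower at 14 dpi against ActD sham was also Igha, with a ratio of 0.138 that became 1.11 without the top cell of each library. At 3 dpi against ActD sham the Igha ratio of 0.182 became 1.94 and the Igkc ratio 0.524 in the same way, so that 1 of the 3 lower members was left.

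Genes that work with the members were counted in the same way. Of the 9 partners and co-receptors of membrane immunoglobulin, 2 were higher and 0 lower in B-lineage cells at 3 dpi against ActD sham. Of all genes in that pair, 8.8% were higher and 22% lower. At 14 dpi against ActD sham 0 of the 9 passed the fold, where 8.4% of all genes were higher and 4.69% lower. Cd79a was at 2029, 2883, 2414 and 2122 CPM in standard sham, ActD sham, 3 dpi and 14 dpi, and Cd79b, its partner in signalling, at 1317, 2028, 1624 and 1275 CPM. Of 7 genes of the surrogate light chain and of recombination, all 7 were higher at 14 dpi than at 3 dpi, with a median log2 ratio of 5.73, where 25.9% of all genes were higher. Most of the 7 are markers by which pro-B and pre-B-like cells were named, so the count is not independent of the stage makeup. Igll1 and Vpreb1, which form the surrogate light chain, were at 451 and 694 CPM at 14 dpi and at 0 UMIs at 3 dpi, where no pro-B and pre-B-like cell was found.

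Of the 3 measured receptors for antibody, 2 were higher at 3 dpi than in ActD sham and all 3 were lower at 14 dpi than at 3 dpi, against 8.8% and 12.2% of all genes. Within Ms4a1-led cells, 0 of the 3 passed the fold at 3 dpi against ActD sham, where 8.76% of all genes were higher and 12.7% lower. At 14 dpi against 3 dpi, 1 of the 3 was higher and 1 lower in these cells, against 13.2% and 6.49% of all genes. Fcmr, the receptor for IgM, was at 172, 364, 420 and 188 CPM in standard sham, ActD sham, 3 dpi and 14 dpi, and Fcgr2b, the inhibitory IgG receptor, at 39.9, 42.2, 118 and 38.5 CPM. Of the secretory genes, 5 of 12 measured were lower and 0 higher at 3 dpi against ActD sham, and 5 of 14 were higher and 1 was lower at 14 dpi against 3 dpi. The shares over all genes were 22% lower in the former pair and 25.9% higher in the latter. Within Ms4a1-led cells, 3 of 10 were lower in the former and 5 of 13 higher in the latter, against 12.7% and 13.2% of all genes. Mzb1, a chaperone of IgM assembly in the endoplasmic reticulum, was at 509, 413, 336 and 628 CPM. Iglc1 and Iglc3, the other λ genes, were at 1248 and 637 CPM in ActD sham and at 395 and 346 CPM at 14 dpi.

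Cells that secrete antibody were sought among all 31660 barcodes, as those in which Jchain made up at least 1% of the UMIs. There were 9 (0.0284%), of which 3 were in standard sham, 1 in ActD sham, 2 at 3 dpi and 3 at 14 dpi. Their isotypes were IgM in 4, IgA in 4 and IgG1 in 1. The lowest Jchain share among them was 1.08% and the next barcode below had 0.831%. Of the 9, 0 passed the cell filters, since 6 were among the barcodes with the highest doublet scores, 2 held UMIs of Itgam with a lymphoid marker and 1 had 379 genes and 31.1% mitochondrial UMIs. They are therefore not among the B-lineage cells above.

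A wider class, called immunoglobulin-rich, was set by the constant genes and Jchain together at 10% or more of the UMIs of a barcode. It held 14 barcodes, 4 in standard sham, 2 in ActD sham, 2 at 3 dpi and 6 at 14 dpi, and all 9 Jchain-high barcodes were among them. The lowest share was 11.7%, and the next barcode below it had 6.55%. The isotype was IgM in 6, IgA in 6, IgG1 in 1 and IgG2b in 1. In each of them 1 heavy chain gene gave at least 97.7% of the heavy chain UMIs and Igkc gave 91.8% to 99.9% of the light chain UMIs. By constant gene UMIs, all 14 thus had 1 leading heavy chain gene and Igkc as their main light chain gene. UMIs of λ V genes were counted in most of them and are described with the variable genes.

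In standard sham all 4 immunoglobulin-rich barcodes were IgM. The first had 3950 Ighm, 11239 Igkc and 912 Jchain UMIs, and constant genes and Jchain made up 54.4% of its UMIs. The second, at 54.1%, had 5703, 11432 and 1005. The third, at 24.8%, had 2714, 7033 and 591. The fourth, at 11.7%, had 1261 Ighm and 2532 Igkc UMIs and no Jchain, with 30 UMIs of Igha. In ActD sham the Jchain-high barcode was a shallow IgA barcode of 1244 UMIs, with 213 Igha, 142 Igkc and 15 Jchain UMIs. The second of ActD sham was an IgM barcode with 2787 Ighm, 5180 Igkc and 0 Jchain UMIs.

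After injury, 2 of the 8 barcodes were not IgA or IgM, and 5 were IgA. Both of 3 dpi were IgA, 1 with 3084 Igha, 5912 Igkc and 505 Jchain UMIs and 1 with 1411, 1701 and 157. At 14 dpi, the barcode with the largest share of constant genes and Jchain, 65.5%, was IgA with 4470 Igha, 8568 Igkc and 1286 Jchain UMIs, and its Jchain share of 5.77% was the highest of all barcodes. The only IgM barcode of 14 dpi had 1244 Ighm, 8117 Igkc and 572 Jchain UMIs. The IgG1 barcode had 3251 Ighg1, 12058 Igkc and 317 Jchain UMIs. The IgG2b barcode had 4339 Ighg2b, 20602 Igkc and 268 Jchain UMIs, a Jchain share of 0.425%. With 14 barcodes in 4 libraries, and their number per mouse unknown, the isotypes of sham and injured cords are given as counts only.

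**Figure D2:**
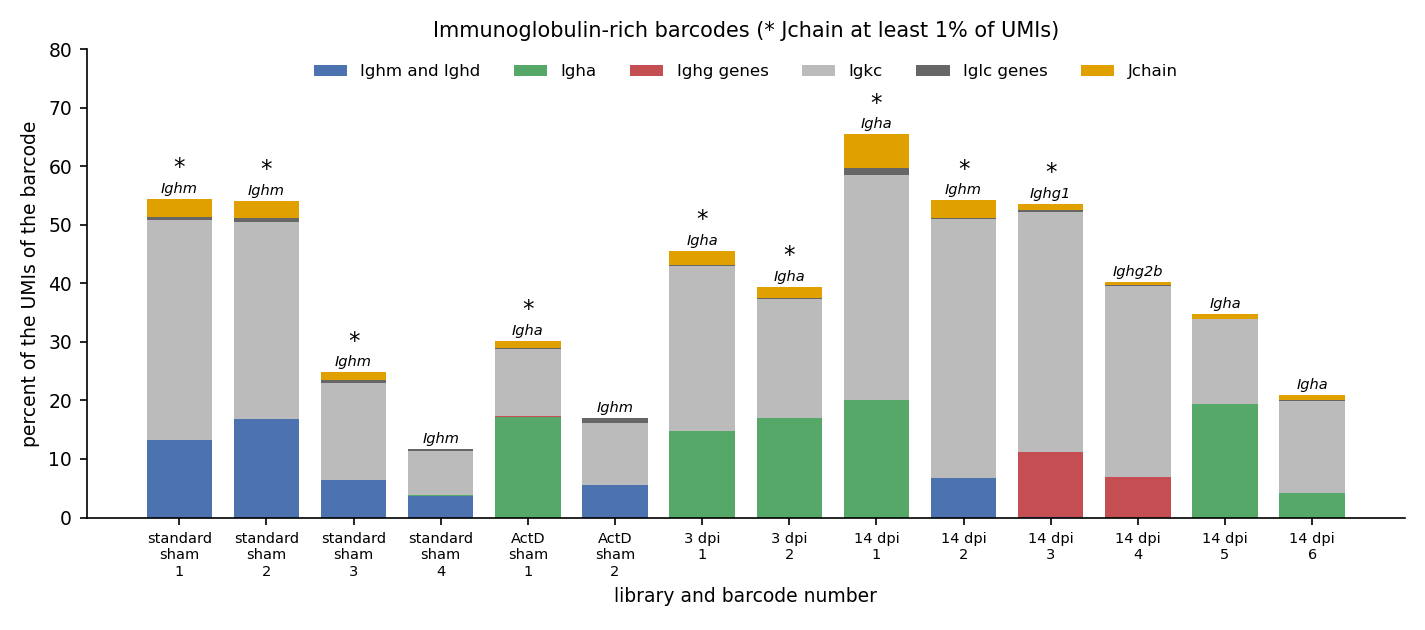
Stacked bars of the percent of UMIs of each of the 14 immunoglobulin-rich barcodes from Ighm and Ighd, Igha, the Ighg genes, Igkc, the Iglc genes and Jchain, with the leading heavy chain gene above each bar and an asterisk on the 9 with Jchain at 1% or more. The bars run from 11.7% to 65.5%, Igkc is the largest part of most of them, and Jchain reaches at most 5.77%.

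The variable genes gave a second view of the same barcodes. In each, the leading heavy chain V gene held at least 80% of the heavy V UMIs, but these UMIs were few in some. The shallow IgA barcode of ActD sham had 1 heavy V UMI, the second barcode of 3 dpi 3 and the third of standard sham 5. The first barcode of standard sham used Ighv1-42 with Igkv6-25, the first of 3 dpi Ighv1-75 with Igkv6-25, and the IgG1 barcode of 14 dpi Ighv3-6 with Igkv12-46. The second and the fourth barcode of standard sham both used Ighv1-64 with Igkv8-30. The cell barcodes of that pair differed at no fewer than 8 bases, and 1 of the pair had 1005 Jchain UMIs and the other 0. The IgG2b barcode of 14 dpi held a pair of κ V genes, Igkv5-43 with 97 UMIs and Igkv19-93 with 29. Most barcodes also held UMIs of λ V genes. The first of 3 dpi had 70 UMIs of Iglv1 beside 84 of Igkv6-25. The third of standard sham had 29 UMIs of λ V genes beside 36 of κ V genes, and the second had 0 of λ V genes. The first of standard sham had 40 UMIs of λ V genes, the IgG1 barcode of 14 dpi 59 and the shallow IgA barcode of ActD sham 0.

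Several of these barcodes carried RNA of another class. The IgG2b barcode of 14 dpi held 303 UMIs of microglial markers, but 0 of Tmem119 and 1 of P2ry12. The second and the third barcode of standard sham held 86 and 134 microglial marker UMIs. The first of 3 dpi held 41 UMIs of macrophage markers and 16 of T-cell markers. Of the 14 barcodes, 10 were among those with the highest doublet scores when all genes were scored and 7 when immunoglobulin genes were left out. The part of a second cell in their member counts was not tested. A single one of the 14 passed every filter, an IgA barcode of 14 dpi with 1796 Igha, 1342 Igkc and 70 Jchain UMIs. It was placed with microglia-like cells and held 115 UMIs over 9 of the 10 microglial markers.

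Genes outside immunoglobulin were then compared between the 9 Jchain-high barcodes and B-lineage cells. Their 107184 UMIs outside immunoglobulin genes were set against 9082661 of 1420 B-lineage cells. The 10 genes with the largest CPM ratio, among those with at least 50 UMIs in the 9 barcodes, were Slpi, Derl3, Fkbp11, Fam46c, Ckap4, Creld2, Txndc5, Xbp1, Ly6c2 and Fam214a, with ratios from 360 down to 32.1. That ranking can hold only genes that are high in the barcodes, and it is given as a description. Slpi, a secreted protease inhibitor, had the ratio of 360 (286 to 456), with UMIs in 5 of the 9 barcodes. Derl3, which moves misfolded proteins out of the endoplasmic reticulum, was 203-fold higher. Of its 115 UMIs, 83 came from 1 barcode, the third of standard sham. Txndc5, a disulphide isomerase, was 47.8-fold higher and Xbp1, the transcription factor of the secretory programme, 46.7-fold. Of the list of 18 secretory genes, all had a ratio above 1. The ratios ran from 1.25 (0.896 to 1.69) for Pou2af1 to 1102 (165 to 46816) for Tnfrsf17, which had 13 UMIs against 1. Mzb1 was at 6643 CPM against 541, with UMIs in each of the 9 barcodes. Of its 712 UMIs there, 343 came from the third barcode of standard sham and 191 from the first. Sdc1 (CD138), a surface marker of plasma cells, was 12.9-fold higher.

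Several genes of B-cell identity, and Vpreb3 of the earlier stages, were lower in the same barcodes. Pax5, the factor that holds B-cell identity, was 20.1-fold lower, Ebf1 24.4-fold and Vpreb3 38.0-fold. Cd79a was 3.01-fold and Ms4a1 3.03-fold lower. Other B-cell markers did not differ beyond counting error, with ratios of 0.870 (0.523 to 1.36) for Fcmr, 0.617 (0.200 to 1.45) for Cd22 and 0.529 (0.194 to 1.16) for Blk. The co-receptor gene Cd81 was 5.48-fold higher (4.42 to 6.74). Mki67, a marker of cycling cells, was 16.5-fold lower than in all B-lineage cells together, at 46.6 CPM against 768, but Ms4a1-led cells were at 9.71 to 36.9 CPM in the 4 libraries. Rag1, Dntt, Igll1 and Vpreb1 had 0 UMIs in the 9 barcodes, which puts them at least 4.11-fold, 6.36-fold, 11.4-fold and 19.2-fold lower than in all B-lineage cells together. In Ms4a1-led cells Dntt and Igll1 were also at 0 UMIs, and Rag1 and Vpreb1 reached at most 19.4 CPM, so these 4 genes do not set the barcodes apart from Ms4a1-led cells. Jchain alone chose these barcodes. An IgA barcode of 14 dpi just under the Jchain threshold, at 0.831%, had 54 Mki67 UMIs, more than the 9 Jchain-high barcodes together.

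**Figure D3:**
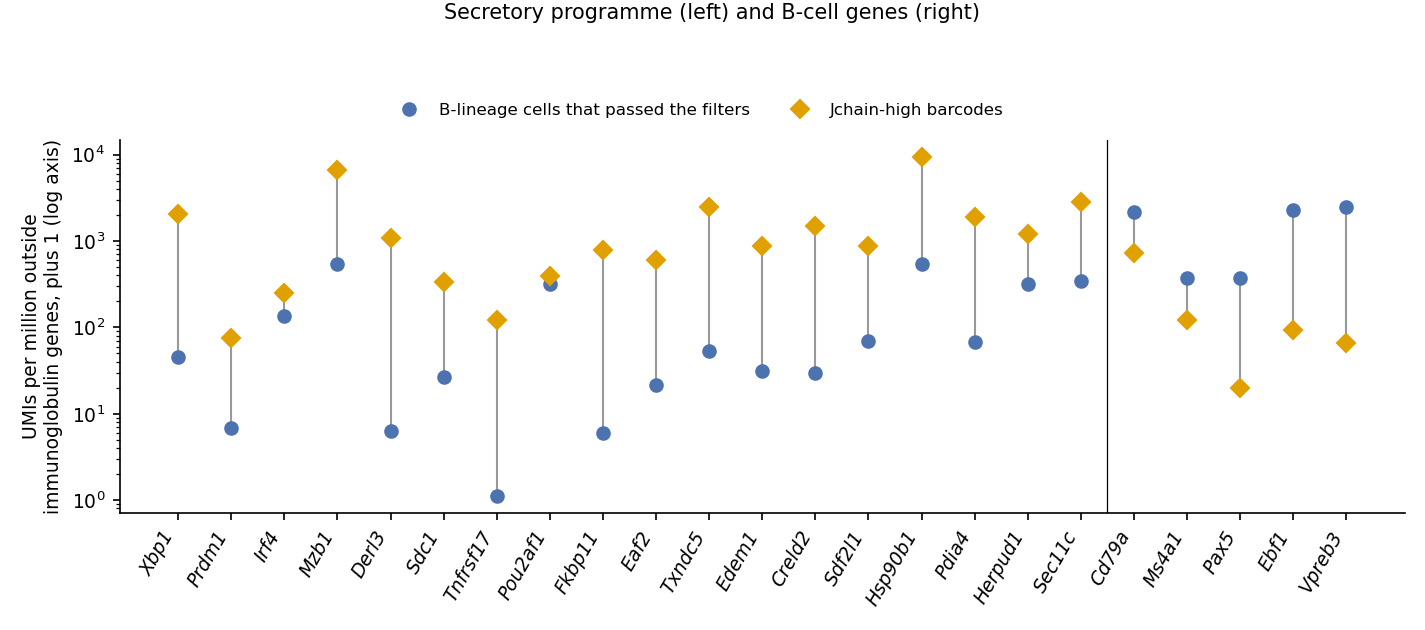
Level of each secretory gene (left of the line) and B-cell gene (right) in UMIs scaled to a common total outside immunoglobulin genes, plus 1, on a log axis, as circles for B-lineage cells and diamonds for the 9 Jchain-high barcodes, joined by a line and without error bars. Every secretory gene drawn has its diamond above its circle, as Derl3 (203-fold) and Xbp1 (46.7-fold) do. Of the Derl3 UMIs behind the diamond, 83 of 115 came from 1 barcode. Every gene drawn on the right has its diamond below its circle, as Pax5 (20.1-fold lower) does.

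A few barcodes held most RNA of several members in a whole library. The immunoglobulin-rich barcodes held 98.5% of the 2546 Jchain UMIs of standard sham, 16.7% of 90 in ActD sham, 86.9% of 762 at 3 dpi and 91.9% of 3191 at 14 dpi. For Igkc the shares were 45.5%, 44.3%, 55.0% and 72.8%. For Igha they were 62.0%, 33.5%, 80.8% and 90.9%. For Ighm they were 25.6%, 23.3%, 0.0224% and 4.78%, since neither barcode of 3 dpi was IgM. At 14 dpi they held 95.6% of the 3403 Ighg1 UMIs and 96.0% of the 4536 Ighg2b UMIs, and the IgG1 barcode alone gave 3251 of the former. The 9 members together made up 0.221%, 0.0971%, 0.0206% and 0.100% of all UMIs of the 4 libraries.

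**Figure D4:**
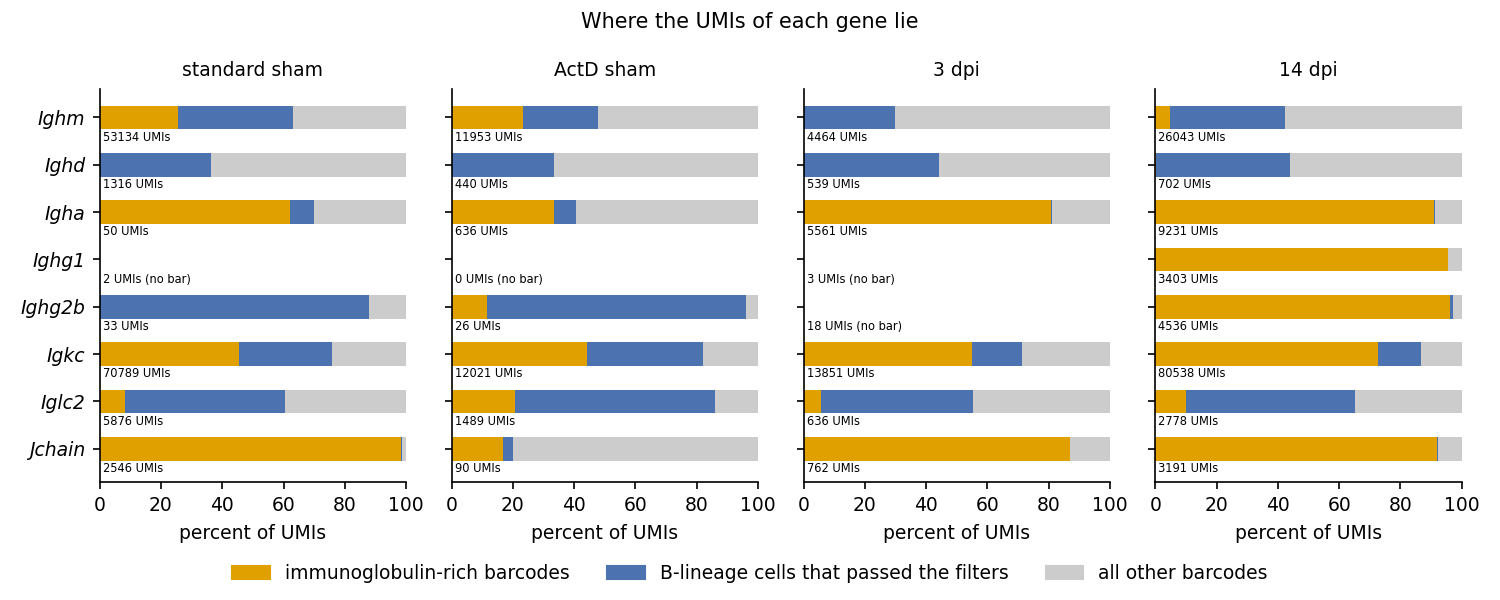
Origin of the UMIs of 8 members in each library, as stacked bars in percent of that gene's UMIs, split into immunoglobulin-rich barcodes, B-lineage cells that passed the filters and all other barcodes, with the number of UMIs below each bar and no bar under 20 UMIs. Jchain comes mostly from the rich barcodes in every library but ActD sham, where they hold 16.7%.

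Members were also counted in cells that do not make antibody. In microglia-like cells Ighm was at 214 CPM in standard sham, 252 in ActD sham, 41.6 at 3 dpi and 67.9 at 14 dpi. Igkc was at 34.6, 30.3, 21.0 and 61.0 CPM, and the last value became 34.3 without the 1 immunoglobulin-rich cell of that class. Over all B-lineage cells Igkc exceeded Ighm in each library, and in microglia-like cells Ighm exceeded Igkc in each library. The ratio of Igkc to Ighm was 1.08, 1.56, 1.71 and 1.15 in B-lineage cells of standard sham, ActD sham, 3 dpi and 14 dpi. In microglia-like cells it was 0.162, 0.120, 0.505 and 0.505, the last without the rich cell. The ratio also differed between the B-lineage stages. It was 0.333 in standard sham and 0.338 at 14 dpi in pro-B and pre-B-like cells, 1.02, 0.935 and 0.637 in Vpreb3-led cells of standard sham, ActD sham and 14 dpi, and 1.73 to 2.54 in Ms4a1-led cells. At 14 dpi the ratio of microglia-like cells lay within the range of the stages. In standard sham and in ActD sham it lay below that of every stage, and at 3 dpi below that of Ms4a1-led cells.

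The share of microglia-like cells with a UMI was also higher for Ighm than for Igkc in each library. For Ighm it was 74.2%, 82.8%, 38.4% and 40.6%, and 19.3%, 20.6%, 3.84% and 7.53% after thinning to 1000 UMIs per cell. In B-lineage cells the thinned share was 95.1%, 97.2%, 91.0% and 91.9%. For Igkc in microglia-like cells the shares were 15.5%, 19.2%, 26.2% and 17.5%, and 2.60%, 2.60%, 2.13% and 3.05% after thinning. The unthinned share at 3 dpi was highest for Igkc where the cells were deepest, at a median of 17204 UMIs, and lowest after thinning. A thinned share, like CPM, is set by the part of a cell's UMIs that a member takes, not by its UMIs per cell.

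Switched isotypes were counted in microglia-like cells mostly where a library held rich barcodes of that isotype. Igha in microglia-like cells was at 0 UMIs in standard sham, with a limit of 0.148 CPM, where all rich barcodes were IgM. It was at 14.7 CPM in ActD sham, 6.10 at 3 dpi and 41.5 at 14 dpi, the last 5.76 without the rich cell, and each of these libraries held an IgA-rich barcode. The rich barcodes of the same libraries held 213, 4495 and 8390 Igha UMIs. Without the rich cell, the level in microglia-like cells thus did not rise with these UMIs. Ighg1 had 0 UMIs in microglia-like cells of the other 3 libraries and 65 at 14 dpi, in 65 cells. Ighg2b had 1, 1, 0 and 57. The only IgG-rich barcodes were those of 14 dpi. Whether rich barcodes were the source of these UMIs was not tested.

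The ratios to Igkc were then compared between classes. At 14 dpi, Jchain to Igkc was 0.0511 in microglia-like cells without the rich cell, 0.0500 in the rich barcodes and 0.0012 in B-lineage cells. Ighg1 to Igkc was 0.0372 in those microglia-like cells and 0.0555 in the rich barcodes, and Ighg2b to Igkc 0.0331 and 0.0743. Igha to Igkc was 0.168 and 0.143, against 0.0030 in B-lineage cells. At 3 dpi, Igha to Igkc was 0.290 in microglia-like cells, 0.407 in macrophage-like cells and 0.343 in neutrophil-like cells, and 0.590 in the rich barcodes. In ActD sham it was 0.484 in microglia-like cells and 0.0400 in the rich barcodes, so there the ratios lay far apart. Whether the member UMIs of these cells were free RNA or RNA of the cells themselves was not tested. Nor was it tested which cells any free RNA came from.

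In microglia-like cells, 4 of 6 measured members were lower at 3 dpi than in ActD sham and 0 were higher, where 30.9% of all genes were lower and 12.6% higher, with a median log2 shift of -0.51. At 14 dpi against ActD sham, 4 of 8 were higher and 3 lower, against 6.11% and 19.9% of all genes, with a median log2 shift of -0.55. At 14 dpi against 3 dpi, 5 of 8 were higher and 0 lower, against 10.1% and 13.7% of all genes. Microglia-like cells, too, were held by different clusters in different libraries. In ActD sham, 1376 of them lay in a cluster led by P2ry12, and at 14 dpi 2391 in 1 led by Apoc1 and Lpl. At 3 dpi, 196 lay in a cluster led by Mki67, and 285 cells of the Apoc1-led cluster were named macrophage-like. Each ratio with 3 dpi or 14 dpi is therefore also one between clusters. These are ratios of CPM, and for Ighm and Igkc counts per cell differed less. Ighm had 382 UMIs in 469 cells at 3 dpi and 3410 in 4241 at 14 dpi. Igkc had 193 and 3063, the latter 1721 without the top cell. In the 118 shallowest cells of 3 dpi (median 6246.5 UMIs) Ighm was at 114 CPM and 0.712 UMIs per cell. In the 117 deepest (34507) it was at 26.7 CPM and 1.01 UMIs per cell. In ActD sham it was at 243 CPM and 1.52 UMIs per cell in the 394 shallowest cells. In the 393 deepest it was at 241 CPM and 4.30, so there the count per cell rose with depth. From shallowest to deepest, standard sham went from 243 to 197 CPM and from 1.21 to 2.31 UMIs per cell. In the same way, 14 dpi went from 125 to 46.1 CPM and from 0.585 to 0.975 UMIs per cell. Ighg1 and Ighg2b had 0 UMIs at 3 dpi. The part of depth in these ratios was not tested. In standard sham against ActD sham, 1 of 6 was higher and 3 were lower, against 6.83% and 24% of all genes, with a median log2 shift of -0.56. Ighm was at 0.165 times its ActD sham level at 3 dpi and at 0.270 times at 14 dpi. For Igkc the ratio of 14 dpi to ActD sham was 2.01, and 1.42 without the top cell. For Igha the same ratio was 2.83, and 0.399 without the top cell, so a single cell set its direction. At 14 dpi against 3 dpi the Igha ratio of 6.81 became 0.980 and the Igkc ratio of 2.90 became 1.81 without the top cell of each library, so that 3 of the 5 higher members were left. For Iglc2 the ratio of 14 dpi to ActD sham was 0.488, and 1.71 without the top cells.

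Over the 31 sums of at least 20 cells outside the B lineage, counted by class and library, Ighm ran from 7.38 to 1219 CPM with a median of 136, and Igkc from 3.30 to 699 CPM with a median of 37.7. Igkc exceeded Ighm in 6 of the 31. Plasmacytoid dendritic-like cells, a type that shares regulators with B cells, were at 1219 CPM of Ighm in standard sham, 890 at 3 dpi and 771 at 14 dpi. Their Igkc was at 273, 103 and 63.5 CPM. Among these 31 sums, macrophage-like cells of standard sham had the highest Igkc, at 699 CPM over 118 cells. Clusters without a name are not among the 31, and the 67 unnamed cells of standard sham led by Fcmr were at 2607 CPM. T-cell-like cells of standard sham were at 577 CPM, and 100 of their 141 Igkc UMIs came from 1 cell.

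**Figure D5:**
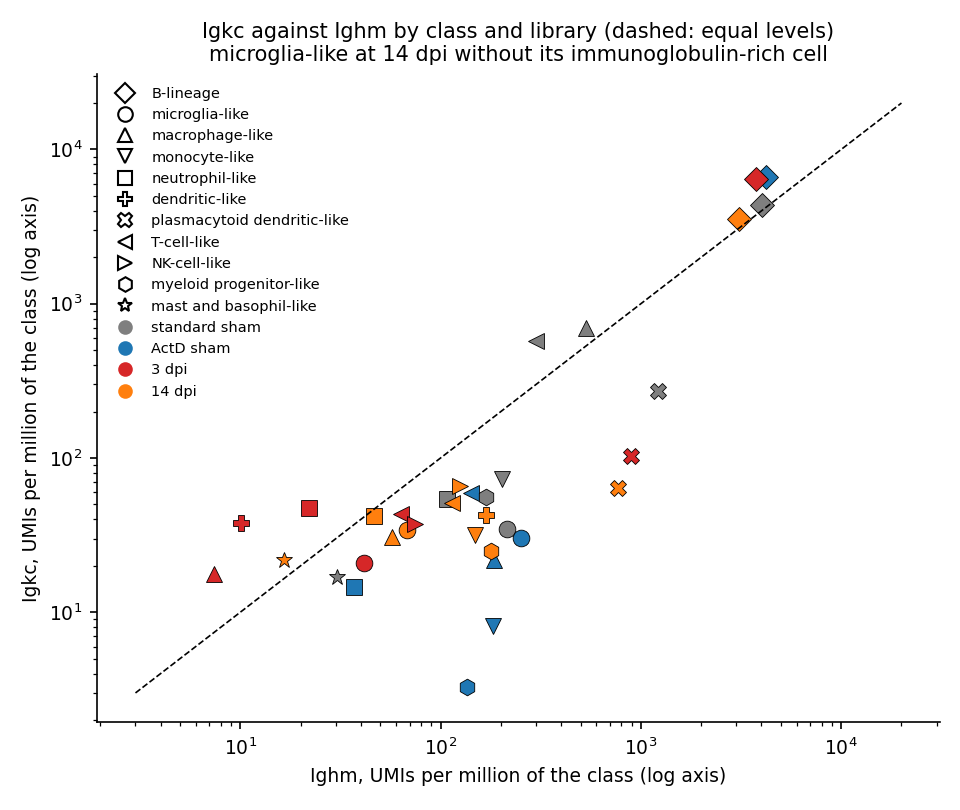
Igkc against Ighm in CPM on log axes, for each class and library of at least 20 cells, with microglia-like cells of 14 dpi drawn without their immunoglobulin-rich cell. B-lineage groups lie in the upper right, and most other classes lie below the line of equal levels, as microglia-like cells do at ratios of 0.120 to 0.505.

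As a description over the 35 sums of all named classes by library, which share libraries and depth, the genes outside immunoglobulin whose log2(CPM + 1) was most like that of Igkc included Fcmr (Pearson r 0.933), Pou2af1 (0.932), Pax5 (0.927) and Ms4a1 (0.909). For Jchain, counted mostly in barcodes outside these classes, the highest were B3gat2 (0.673), Flii (0.661), Zfp825 (0.649), D130017N08Rik (0.642) and Vps4b (0.632), and such values over sparse counts are no finding.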

How the data were processed

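What the authors deposited are raw UMI counts for each barcode, not normalized and before cell filters, from 10x Chromium 3′ libraries, 1 per condition. The submitters' processing notes name Cell Ranger and mm10. Cells were kept from 600 genes upward and with mitochondrial UMIs at 10% or less, and those in which Itgam was counted together with a lymphoid marker such as Cd3e or Klrb1c were removed. Doublets were taken as the top Scrublet scores (scanpy 1.11.5) at 0.8% per 1000 barcodes, in place of the DoubletFinder run of the study. Integration and clustering (Seurat 5.3.0, R 4.3.3) used 2000 features, 50 dimensions and resolution 0.6 without the 393 immunoglobulin and J chain genes, and clusters were named per library from marker lists, from at least 3 markers detected in 25% of the cells. A library with under 20 cells in a cluster took the name its larger libraries shared, as for the 8 pro-B and pre-B-like cells of ActD sham. Cells kept numbered 5035 in standard sham, 2135 in ActD sham, 8214 at 3 dpi and 9078 at 14 dpi, with median depths of 7435 to 9663 UMIs.

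UMIs were added up per class and library, and CPM were computed from the sums. Exact intervals (scipy 1.17.1) are Poisson for sums, conditional Poisson for ratios and Clopper-Pearson for shares. A count of 0 was given the limit of 3 counts. There is no length scaling, since 1 molecule gives 1 UMI. The fold rule and the interval of a CPM ratio were tested on simulated sums with known folds, and the other steps were not. All 9 members are given, with up to 4 genes per list with the most UMIs, the 10 leading genes of Jchain-high barcodes, the 5 genes most like Igkc and Jchain, and markers from the lists. The members and lists were chosen with earlier results of these data known, and the immunoglobulin-rich class and the stages were set after the values were seen. Sequences and coordinates were read from the GRCm38 genome and the GENCODE M21 annotation. No protein sequence was used here. Some of the genes that these rules name are not reported here.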

Additional observations from a re-analysis of the deposited data

Results flagged for a closer look

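The Jchain-high barcodes lay outside the filtered cells that the comparisons use, and they are flagged because their signal is in data those comparisons leave out. They numbered 3 in standard sham, 1 in ActD sham, 2 at 3 dpi and 3 at 14 dpi, against 0 among the cells kept in each library. A count of 0 in the cells kept allows a share of up to 0.0596%, 0.141%, 0.0365% and 0.0330% in the same order.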

How the results depend on the processing

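No paired analysis was possible because each condition is 1 library, and leaving out a replicate was not possible for the same reason. The limits are those of 1 library per condition, of few B-lineage cells in ActD sham and at 3 dpi, and of Jchain-high barcodes that look like doublets to a score. Of the summary values under the alternatives, 68 moved beyond counting error or 1.5 times the count and 132 did not, and of the values of single members 175 moved and 525 did not.

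B-lineage cells of 3 dpi numbered 294 at a cluster resolution of 1.2, of which 163 came from a cluster with Cd79a in 3.68% of its cells, and 32 under the stricter filter (1000 genes, 5% mitochondrial UMIs). Every other count of B-lineage cells kept within 1.5 times under these alternatives.

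Immunoglobulin made up another share of the UMIs of B-lineage cells as follows. With Itgam and lymphoid cells kept it was 1.32% in standard sham, 2.08% in ActD sham, 1.22% at 3 dpi and 0.649% at 14 dpi, with 3 and 1 rich barcodes inside the class in the first 2. At resolution 1.2 it was 1.92% in ActD sham, 0.0889% at 3 dpi and 0.710% at 14 dpi. With each cell named on its own it was 0.848%, 1.09%, 0.971% and 0.746%. With each library clustered alone it was 0.920% in standard sham and 1.96% in ActD sham. Under the looser filter (200 genes, 20%) it was 0.935% in standard sham and 0.741% at 14 dpi, and under the stricter one 0.862% in standard sham, 1.19% in ActD sham and 0.656% at 14 dpi. With doublets kept it was 0.692% at 14 dpi. Apart from the values named with a reason, the cause was not tested.

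The summed members in microglia-like cells, 257 CPM in standard sham, 310 in ActD sham, 73.4 at 3 dpi and 178 at 14 dpi, moved with the rich barcodes in the class. Under the stricter filter they were at 1279 CPM in standard sham, where 1 rich barcode gave 18280 of 26277 UMIs, 84.4 at 3 dpi and 187 at 14 dpi. With doublets kept they were at 652 CPM at 14 dpi, where 2 rich barcodes gave 28485 of 36635 UMIs, 67.0 at 3 dpi and 269 in standard sham. Under the looser filter they were at 115 CPM at 14 dpi, 57.2 at 3 dpi and 298 in ActD sham, and without immunoglobulin-rich cells, an alternative chosen after seeing the data, at 114 CPM at 14 dpi. With Itgam and lymphoid cells kept they were at 273, 332, 63.8 and 174 CPM in the 4 libraries. At resolution 1.2 they were at 281 in standard sham, 301 in ActD sham and 203 at 14 dpi. With each cell named on its own they were at 208, 262, 41.5 and 172 CPM, and with each library clustered alone at 245, 301, 56.5 and 190 CPM.

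Jchain-high cells among those kept were 0 in each library. They became 3 in standard sham with Itgam and lymphoid cells kept, 2 there under the looser and 2 under the stricter filter, and 2 in standard sham, 1 at 3 dpi and 3 at 14 dpi with doublets kept. Doublets scored without immunoglobulin genes, also chosen after seeing the data, gave 1 in standard sham and 1 at 3 dpi. A threshold of 0.5% gave 1 at 14 dpi, and counting every deposited barcode gave 3, 1, 2 and 3. The unswitched share of B-lineage cells of ActD sham became 100% under the stricter filter and with each cell named on its own. The share of microglia-like cells with an Igkc UMI was 4.15% in standard sham, 5.21% in ActD sham and 5.14% at 14 dpi after thinning to 2000 UMIs, and 15.5%, 19.2%, 26.2% and 17.5% without thinning.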
